A study of Saccharomyces cerevisiae with 30 samples.

Results

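The mitochondrial ribosome of budding yeast has a small and a large subunit, and the genes described here encode proteins of the small subunit. They were taken from the deposited tables by name: all rows named RSM or MRPS followed by a number, together with MRP1, MRP2, MRP4, MRP10, MRP13, MRP17, MRP21, MRP51, NAM9, PET123 and SWS2. This gave 31 genes of the 5890 listed. Of these, 30 also carry a small-subunit ribosomal protein name (uS, bS or mS followed by a number) in the RefSeq annotation, and RSM22 carries none. The annotation gives such a name to 34 genes in all. The 4 outside the rule are EHD3 (mS47), FYV4 (mS41) and QRI5 (mS38), which are described beside the members, and VAR1, which is not analysed here.

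The small subunit binds the messenger RNA of the few proteins that mitochondria make themselves, and its decoding centre pairs tRNAs with codons. Nearly all of its proteins are encoded in the nucleus, made on cytosolic ribosomes and imported into the matrix, in many cases with the help of an N-terminal presequence. Many mitochondrial messages are translated close to the outer membrane, so that a protein can meet the import machinery while its chain is still growing.

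The measurement was proximity-specific ribosome profiling. A biotin ligase (BirA) fused to a membrane protein tags nearby ribosomes, whose protein Rpl16a or Rpl16b carries an acceptor (AVI) tag, during a short pulse of 10 nM biotin. Ribosome-protected fragments, or footprints, are then sequenced from all ribosomes (input) and from those bound to streptavidin (pulldown). All strains, untreated controls included, carried SRP72-AID-HA, a degron-tagged subunit of the signal recognition particle (SRP), which brings ribosomes with a signal sequence to the endoplasmic reticulum (ER), as well as OsTIR1 and both tagged RPL16 genes. Auxin at 500 µM was given for 0, 15, 30 or 60 min to deplete Srp72.

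The 30 libraries form 15 pairs of pulldown and input in 5 series. A Tom20 series (TOM20-mVenus-BirA, W303 strain with ade2-1, trp1-1, can1-100, ura3-1 and mutant leu2 and his3 alleles) and an Om45 series (OM45-mVenus-BirA, S288C) placed the ligase on the mitochondrial outer membrane and were sampled at 0 and 30 min. At the ER, a Sec63 series (SEC63-mVenus-BirA) and a Ubc6 series (BirA-mVenus with the UBC6 tail anchor, driven by the SEC63 promoter), both S288C, were sampled at 0, 15, 30 and 60 min. These 4 series received 100 µg/ml cycloheximide, which stalls elongating ribosomes, for 2 min before a 2 min biotin pulse. A second Sec63 series had no cycloheximide and a 1 min pulse and was sampled at 0, 30 and 60 min. The 4 S288C series also carried leu2, met15 and ura3 deletions. Each combination of series, time and fraction had 1 library, so nothing was replicated, and p-values measure the spread over series or over matched times, not over replicate cultures.

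Counts summed over the listed genes ran from 4863970 to 103495224 in pulldowns and from 2041786 to 113497242 in inputs, the smallest being the Ubc6 input at 0 min. The bait checks separated as labelled before auxin. TOM70, an outer membrane import receptor, had a log2 enrichment (pulldown over input) of 3.76 at Tom20 and 3.57 at Om45, against -0.58, -0.28 and -0.22 at the 3 ER baits. KAR2, the ER lumen chaperone, had -0.72 and 0.04 at the mitochondrial baits, against 4.25, 2.78 and 2.61 at the ER baits. The degron acts on the Srp72 protein, so counts of the SRP72 message do not check the depletion. All 31 small-subunit genes passed the filter on low counts, and the lowest count of any of them in a library was 25.

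Before auxin, footprints of many small-subunit messages were strongly enriched at the mitochondrial surface, but a substantial set was not. The median log2 enrichment of the 31 genes was 1.67 at Tom20 and 1.03 at Om45, against -0.56 at Sec63 with cycloheximide, -0.31 at Ubc6 and 0.05 at Sec63 without the drug. The medians of all genes tested were -0.25, -0.20, -0.45, -0.28 and -0.11 in the same order of baits. Together the 31 genes made up 0.901% of the Tom20 pulldown and 0.594% of the Om45 pulldown, whereas they were 0.222% and 0.141% of the matching inputs.

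In the comparison of mitochondrial with ER baits at 0 min, 17 of the 31 messages were higher at mitochondria, 0 were lower and 14 did not pass the test (edgeR quasi-likelihood, Benjamini-Hochberg adjusted p below 0.05 over 5286 genes). Of all genes tested, 10.8% were called higher and 9.48% lower. The median difference of the 31 genes was 1.82 log2 units, against 0.05 over all genes. In 19 of them both mitochondrial values lay above all 3 ER values, which was the case for 24.1% of all genes tested. Leaving out the Ubc6 series lowered the 17 calls to 13, while 8.66% of all genes were called higher. Without the Tom20 or the Om45 series only a single mitochondrial pair is left. The members' median difference was then 1.52 and 1.98, against -0.05 and 0.05 over all genes.

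**Figure D1:**
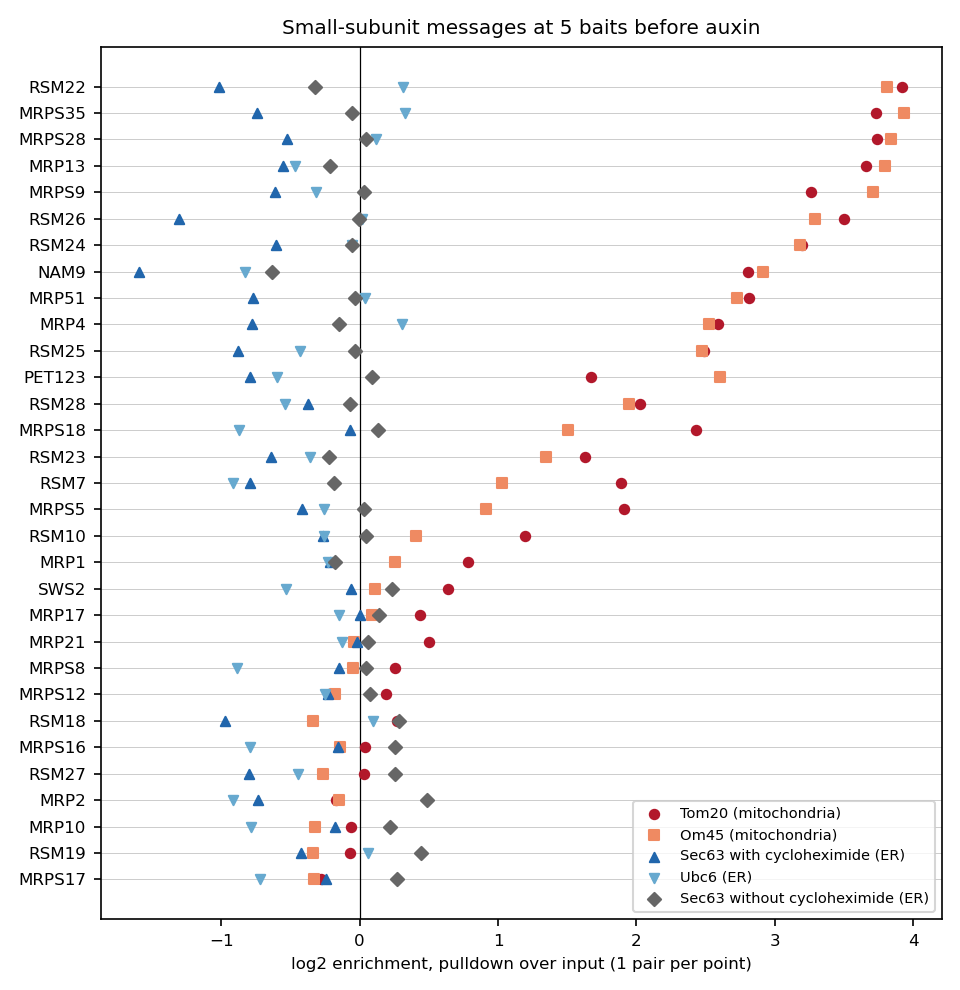
Log2 enrichment (pulldown over input) of the 31 small-subunit messages at each of the 5 baits at 0 min, 1 pair per point, ordered by the mean of both mitochondrial baits. From RSM22 at the top down to MRP1 the Tom20 and Om45 points lie to the right of all ER points; from SWS2 to MRPS17 they mix with them.

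The proteins without a counterpart in bacterial ribosomes (the mS proteins and RSM22) held most of the strongly enriched messages: 9 of 12 passed, with a median difference of 2.67. MRP13 (mS44; chromosome VII, positions 647123 to 648142 of the R64 assembly, sacCer3) had log2 enrichments of 3.66 at Tom20 and 3.80 at Om45, against -0.56, -0.47 and -0.21 at the ER baits. Both mitochondrial values were more than 3 units above every ER value, and the fitted difference was 4.07 ± 0.28 (SE; adjusted p = 0.00154, edgeR). RSM22, a methyltransferase-like protein (chromosome XI, 159456 to 161342), stood first in the order, with 3.92 and 3.81 at the mitochondrial baits, against -1.01, 0.31 and -0.32 at the ER baits. Its fitted difference was 4.14 ± 0.43 (adjusted p = 0.00231, edgeR), although its 3 ER values were spread over more than 1 unit.

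MRPS35 (mS45) differed by 3.93 ± 0.40 and RSM24 (mS35) by 3.36 ± 0.29. RSM26 (mS42), which is related in sequence to iron and manganese superoxide dismutases, had 3.50 and 3.29 at mitochondria, against -1.30, 0.02 and -0.01 at the ER (difference 3.75 ± 0.45). Its relative MRP1 (mS43) had only 0.78 and 0.26, against -0.22, -0.23 and -0.18. The groups of MRP1 did not overlap, yet the difference of 0.66 ± 0.27 did not pass (adjusted p = 0.173, edgeR). RSM25 (mS23), PET123 (mS26), RSM28 (mS46) and RSM23 (mS29), the counterpart of human DAP3, were called with differences of 2.86, 2.49, 2.24 and 1.82. RSM27 (mS33) and MRP10 (mS37), a protein with a twin cysteine motif, were not, at 0.13 and -0.04. MRP10 had -0.06 and -0.33 at the mitochondrial baits, against -0.18, -0.78 and 0.22 at the ER baits, so its groups overlapped fully.

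Among proteins with counterparts in bacterial ribosomes the split ran through each structural region. In the head, 2 of 6 passed: MRPS9 (uS9m), at 3.26 and 3.71 against -0.61, -0.31 and 0.03, and RSM7 (uS7m), at 1.89 and 1.03 against -0.79, -0.91 and -0.18. Their fitted differences were 3.72 ± 0.32 and 2.01 ± 0.35. RSM10 (uS10m) missed at 0.88 ± 0.30 (adjusted p = 0.103, edgeR), and SWS2 (uS13m), MRP2 (uS14m) and RSM19 (uS19m) had 0.41, 0.13 and -0.30.

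In the body, 3 of 7 passed. NAM9 (uS4m), first found as a suppressor of nonsense mutations in mitochondrial genes, had 2.81 and 2.92 at mitochondria, against -1.59, -0.83 and -0.63 at the ER and was the lowest member in both Sec63 series. Its difference was 3.81 ± 0.35. MRP4 (uS2m) had 2.59 and 2.52, against -0.78, 0.31 and -0.15, and differed by 2.70 ± 0.38. MRPS5 (uS5m) had 1.91 and 0.92, against -0.42, -0.26 and 0.03, and differed by 1.56 ± 0.35 (adjusted p = 0.03, edgeR). MRPS8 (uS8m), MRPS12 (uS12m, a protein of the decoding centre), MRPS16 (bS16m) and MRPS17 (uS17m) lay between -0.17 and 0.32 and did not pass. MRP4 overlaps the annotated gene YHL005C, which had 14 counts in all 30 libraries together.

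In the platform region 3 of 6 passed. MRPS28 (uS15m) had 3.74 and 3.84 at mitochondria, against -0.52, 0.12 and 0.05 at the ER (difference 3.84 ± 0.32). MRP51 (bS1m), which interacts genetically with the leaders of mitochondrial COX2 and COX3 messages, had 2.82 and 2.72, against -0.77, 0.04 and -0.03 (difference 2.96 ± 0.34). MRPS18 (uS11m) differed by 2.16 ± 0.43, with 2.43 at Tom20 and 1.51 at Om45. MRP17 (bS6m), MRP21 (bS21m) and RSM18 (bS18m) had differences of 0.19, 0.19 and 0.09.

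The messages that were not called higher at mitochondria were mainly the short ones. Against the median of all genes tested, 30 of the 31 members lay above it at Tom20 and 26 at Om45 at 0 min. Among the 10 shortest coding regions (276 to 468 bases) mean mitochondrial enrichment at 0 min had a median of -0.04 and ran from -0.20 to 0.38, and 0 of 10 were called. Among all genes tested these means lay between the percentiles 54.9 (RSM19) and 83.4 (SWS2). The 11 of middle length (534 to 957 bases) had a median of 1.97 with 8 called, and the 10 longest (960 to 1887 bases) a median of 2.82 with 9 called. Over the 31 genes, length and mean mitochondrial enrichment had a Pearson correlation of 0.75 and a Spearman correlation of 0.80, given as a description of points that share the same 4 libraries.

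The order was not strict. MRPS17, with 714 bases, had the lowest mean enrichment of both baits, -0.30, and MRP1, with 966 bases, had a mean of 0.52. MRPS28, at 861 bases, reached 3.79, close to the 3.87 of RSM22, whose 1887 bases make it the longest. Length was not related in this way to enrichment over all 5286 genes (Pearson -0.06, Spearman -0.08), whereas the 42 large-subunit genes tested had a Pearson correlation of 0.73 and a Spearman correlation of 0.75. Messages with more input footprints per length were the less enriched ones. Log2 RPKM in the 0 min inputs and mean mitochondrial enrichment had a Pearson correlation of -0.63 and a Spearman correlation of -0.65. Since RPKM divides by length, this relation shares length with the one before. The part of length and of footprint level in the enrichment was not tested.

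**Figure D2:**
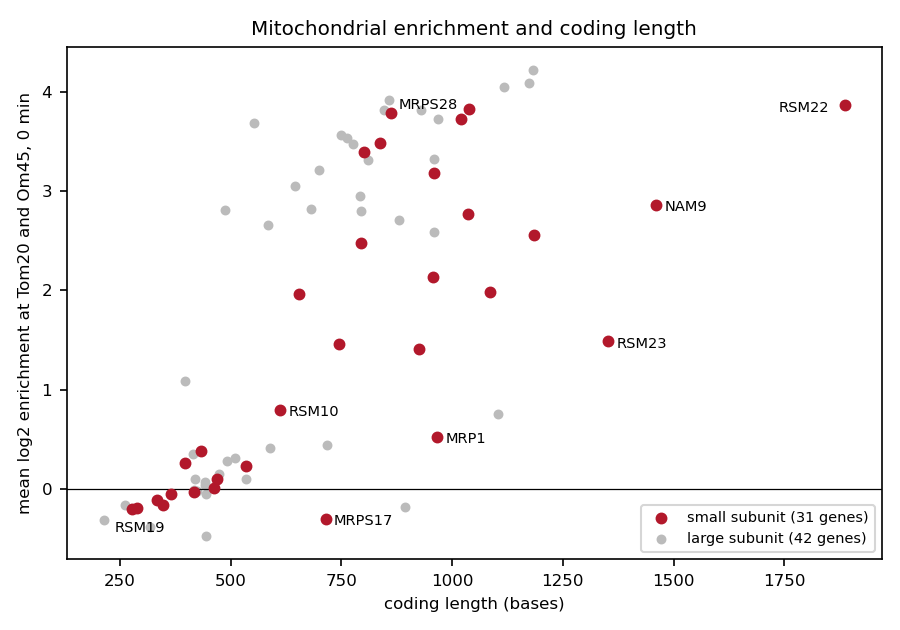
Mean log2 enrichment at Tom20 and Om45 at 0 min against coding length in bases for 31 small-subunit genes (red) and 42 large-subunit genes (grey). The 10 shortest small-subunit genes lie between -0.20 and 0.38, and MRPS17 and MRP1 lie low for their length.

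Other groups of the mitochondrial translation system gave a frame for these values. Of 42 large-subunit messages 23 were called higher at mitochondria, with a median difference of 2.65 and a range from -0.27 to 4.79. All 9 general mitochondrial translation factors were called (median 4.02), as were all 7 ribosome assembly and rRNA factors (median 3.61) and 15 of 17 translational activators (median 2.93). Of the 56 small-subunit proteins of the cytosolic ribosome 0 were called, with a median of -0.26. The small-subunit proteins outside the naming rule were likewise split: EHD3 differed by 2.53 ± 0.34, QRI5 by 0.60 ± 0.26 and FYV4 by 0.33 ± 0.30, and of these only EHD3 passed (adjusted p = 0.00521, edgeR).

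The Tom20 and Om45 baits ranked the 31 messages almost alike (Pearson and Spearman 0.97 over 31 genes at 0 min), but several messages differed between them. At matched times, 6 members were higher at Tom20, 2 were lower and 23 did not pass, against 5.69% of all genes tested called higher and 9.8% called lower. More calls toward Tom20 were also seen in other ribosomal lists. Of 42 large-subunit messages 13 were higher and 5 lower. Of 56 cytosolic small-subunit messages 38 were higher and 0 lower, with a median difference of 0.38. MRPS5 had 1.91 and 2.35 at Tom20 at 0 and 30 min, against 0.92 and 1.25 at Om45 (difference 0.94 ± 0.12, adjusted p = 0.003, edgeR). MRPS18 had 2.43 and 2.88, against 1.51 and 1.77 (0.90 ± 0.10), and RSM7 had 1.89 and 2.92, against 1.03 and 1.90 (0.83 ± 0.10).

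Both times agreed in direction for MRPS5, MRPS18 and RSM7, although the Om45 value of RSM7 at 30 min was as high as its Tom20 value at 0 min. RSM10, MRP21 and MRP1 were also higher at Tom20, by 0.66, 0.57 and 0.46. In the other direction PET123, a protein that works with the COX3 translational activator PET122, had 1.67 and 1.40 at Tom20, against 2.60 and 2.66 at Om45. Its 2 Tom20 values lay about 1 unit below its Om45 values (difference -1.20 ± 0.13, adjusted p = 0.00198, edgeR). MRPS9 differed by -0.49 ± 0.09.

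The 4 members with the highest mean enrichment of both baits, RSM22, MRPS35, MRPS28 and MRP13, differed by 0.05, -0.23, -0.11 and -0.04, and none of these differences passed (lowest adjusted p = 0.137, edgeR). Counting both times, 22 members had Tom20 above Om45 and 5 had Om45 above Tom20, against 41.5% and 28.2% of all genes tested. The strain differs with the bait, so that bait and strain cannot be told apart. The fit has 1 residual degree of freedom with time as a block, and none of the 8 calls passed when that block was dropped.

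**Figure D3:**
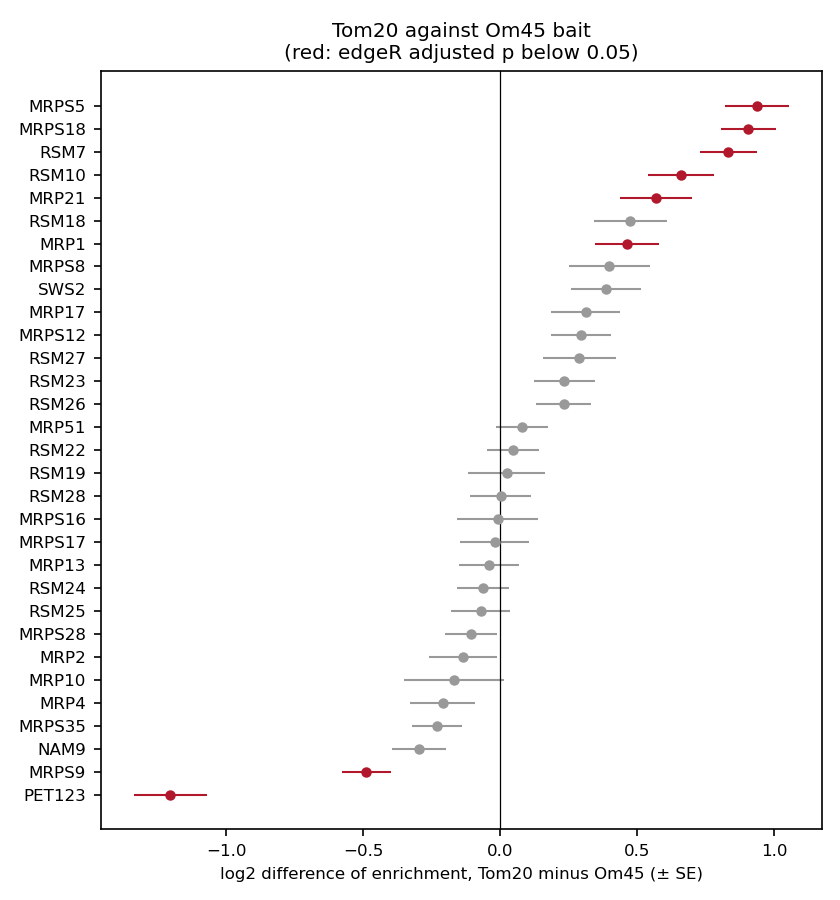
Fitted log2 difference of enrichment, Tom20 minus Om45, over the matched times 0 and 30 min, with SE bars, for 31 small-subunit messages. Red points passed an adjusted p of 0.05: 6 to the right of 0, led by MRPS5 and MRPS18, and 2 to the left, PET123 and MRPS9.

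During auxin treatment, some small-subunit messages became more enriched at the ER. At 15 min 0 of 31 passed, as did 0% of all genes tested (edgeR). An unadjusted p below 0.05 was seen in 4 members and in 885 of all 5286 genes tested. At 30 min 6 were higher and 0 lower, against 8.85% of all genes called higher and 11.5% called lower. At 60 min 16 were higher and 0 lower, against 23.1% and 12.3% of all genes. Calls at 60 min were not particular to mitochondrial messages. Of the cytosolic small-subunit genes 40 of 56 were called higher, with a median change of 0.37. Of the glycolysis and translation factor genes 27 of 46 were called higher, with a median of 0.35. At 30 min these lists had 0 and 7 calls. The median change of the 31 genes was 0.20, 0.21 and 0.45 at 15, 30 and 60 min, against 0.09, 0.15 and 0.29 over all genes, so part of the shift in the median was shared by all genes tested. Enrichment was above its 0 min value in all 3 ER series in 18 members at 30 min and 19 at 60 min, against 34.9% and 47.1% of all genes.

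MRP13 changed most. Its log2 enrichment was -0.56, 0.27, 1.39 and 1.35 at 0, 15, 30 and 60 min at Sec63 with cycloheximide. At Ubc6 it was -0.47, 0.39, 0.78 and 0.83, and at Sec63 without the drug -0.21, 0.47 and 0.63 at 0, 30 and 60 min. In each series every later value lay above the 0 min value, and at 30 min MRP13 was the highest member at Sec63 with cycloheximide and second to SWS2 at Ubc6. The fitted changes were 1.26 ± 0.23 at 30 min (adjusted p = 0.00186, edgeR) and 1.31 ± 0.23 at 60 min (adjusted p = 0.00104, edgeR).

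SWS2, the head protein uS13m, followed the same course without having passed the test of mitochondrial against ER baits. At 0 min it had 0.64 at Tom20 and 0.12 at Om45. It had -0.06, 0.62, 1.23 and 1.52 at Sec63 with cycloheximide, -0.53, 0.44, 0.93 and 1.21 at Ubc6, and 0.24, 0.34 and 0.64 at Sec63 without the drug. Its changes were 0.88 ± 0.24 at 30 min and 1.17 ± 0.24 at 60 min (adjusted p = 0.0222 and 0.00336, edgeR). MRPS12, the decoding-centre protein uS12m, had -0.23, 0.34, 0.87 and 1.18 at Sec63 with cycloheximide, -0.25, -0.08, 0.42 and 0.75 at Ubc6, and 0.08, 0.33 and 0.52 without the drug. It was up by 0.67 ± 0.17 at 30 min and by 0.95 ± 0.17 at 60 min. In both genes, as in MRP13 and NAM9, the increase was smallest in the series without cycloheximide. The median change of the 31 members was also smallest there, at 0.16 and 0.32 at 30 and 60 min. It was 0.37 and 0.63 at Sec63 with the drug, and 0.26 and 0.64 at Ubc6.

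NAM9 had -1.59, -0.83, -0.65 and -0.19 at Sec63 with cycloheximide, -0.83, -0.46, -0.25 and 0.00 at Ubc6, and -0.63, -0.17 and -0.05 without the drug. It thus moved from depletion at the ER baits toward 0 and not above it. Its changes were 0.64 ± 0.15 at 30 min and 0.92 ± 0.15 at 60 min (adjusted p = 0.0111 and 8.8e-04, edgeR). MRPS9 (0.47 ± 0.14, later 0.91 ± 0.14) and RSM26 (0.68 ± 0.21, later 0.72 ± 0.21) completed the 6 calls at 30 min.

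At 60 min the head proteins had 4 of 6 calls, the body proteins 2 of 7, the platform proteins 3 of 6 and the mS group 7 of 12. Added at that time were RSM7 (0.83), RSM24 (0.78), MRPS28 (0.73), MRPS18 (0.71), RSM25 (0.58), RSM27 (0.56), MRP2 (0.54), PET123 (0.49), RSM22 (0.46) and MRP51 (0.42). Enrichment is relative to input, and the inputs of RSM25, RSM26 and MRPS9 changed by -0.83, -0.47 and -0.34 log2 units at 60 min. That of MRPS12 changed by 0.47. A higher enrichment is thus not in itself a gain in the pulldown, which was not tested apart from the input. MRP21, RSM18 and RSM10 changed least, by 0.09, 0.13 and 0.15, and MRP4 (0.23), RSM23 (0.21), MRPS5 (0.19), MRP1 (0.37) and MRP10 (0.45) did not pass. The large subunit had 13 of 42 calls at 30 min and 26 of 42 at 60 min, all higher, with median changes of 0.38 and 0.66.

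These counts depend on scaling and on single series, and those that follow are given without the shares of all genes called. With the DESeq2 size factors the 16 calls at 60 min became 7 and the median change 0.18, against 0.02 over all genes; centring libraries on glycolysis and translation factor genes left 5 calls and turned the sign of 14 members. Leaving out the Sec63 series with cycloheximide gave 0 calls at 30 and at 60 min, and leaving out the Ubc6 series gave 1 at each time. Without the Sec63 series MRP13 changed by 0.70 at 30 min (adjusted p = 0.0669, edgeR), and without the Ubc6 series by 1.16 (adjusted p = 0.0588).

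**Figure D4:**
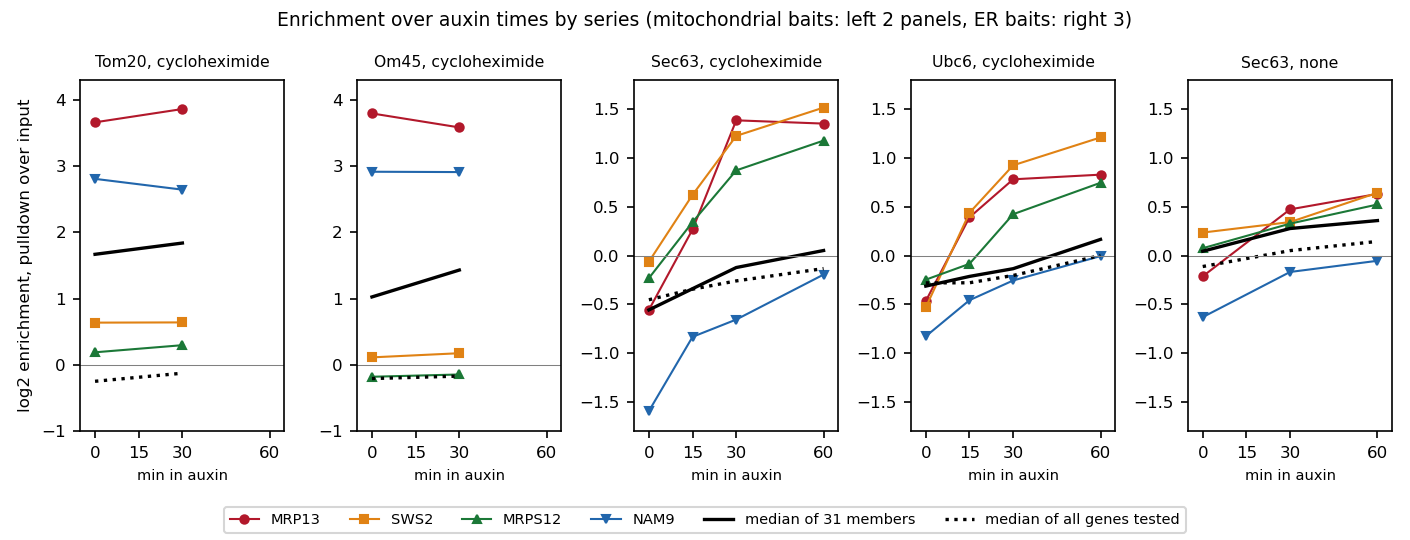
Log2 enrichment against minutes in auxin for MRP13, SWS2, MRPS12 and NAM9, with the median of the 31 members (solid) and of all genes tested (dotted), in each of the 5 series; the 2 mitochondrial panels have another vertical scale. MRP13 lies between 3.58 and 3.86 at the mitochondrial baits and climbs at the 3 ER baits to 1.35, 0.83 and 0.63 at 60 min.

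At the mitochondrial baits no small-subunit message passed the test of change over 30 min of auxin. Of the 31 members 0 were called, against 0.927% of all genes called higher and 0.114% called lower (edgeR). An unadjusted p below 0.05 was seen in 2 members and in 345 of all 5286 genes tested. DESeq2 called 1 member. The median change was 0.10, against 0.06 over all genes. RSM7 had the largest change, with 1.89 and 2.92 at Tom20 at 0 and 30 min and 1.03 and 1.90 at Om45. Both series thus moved up by about the same amount (0.95 ± 0.26), but the adjusted p was 0.167 (edgeR). MRPS5 had 0.39 ± 0.15 (adjusted p = 0.53), while NAM9, MRP13 and RSM22 had -0.08, -0.01 and 0.05.

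The difference between the mitochondrial and the ER change at 30 min was tested directly. One member was called lower and 0 higher, against 2.59% and 10.6% of all genes. That member was MRP13, whose change was -0.01 at mitochondria, against 1.26 at the ER, a difference of -1.26 ± 0.34 (adjusted p = 0.0265, edgeR). The call was lost when any 1 of 4 series was left out, and kept only when the drug-free Sec63 series was. Without the Sec63 series with cycloheximide the difference was -0.90, without Ubc6 -1.18, without Tom20 -1.38 and without Om45 -0.99. The next largest differences, of SWS2 (-0.85) and NAM9 (-0.73), did not pass (adjusted p = 0.208 and 0.067, edgeR).

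Few of these messages passed the test of difference between both ER baits, although these baits did not rank them alike before auxin. With cycloheximide at 0 min, Sec63 and Ubc6 had a Pearson correlation of -0.21 and a Spearman correlation of -0.22 over the 31 genes. Over all genes tested these were 0.73 and 0.51. Over the 42 large-subunit genes tested they were -0.17 and -0.02. Member counts in the Ubc6 pair at 0 min went down to 31 in the input and 25 in the pulldown, both for MRPS16. At matched times 1 of 31 was lower at Sec63 than at Ubc6 and 0 were higher, against 1.65% and 8.21% of all genes. RSM22 had -1.01, -0.61, -0.70 and -0.37 at Sec63 at 0, 15, 30 and 60 min, against 0.31, 0.34, 0.46 and 0.44 at Ubc6. Its Sec63 values lay below its Ubc6 values at all 4 times (difference -0.93 ± 0.18, adjusted p = 0.0122, edgeR). Without the 15, 30 or 60 min pairs the difference was -1.09, -0.89 and -1.16 and did not pass. MRPS35 and MRPS28 came next, at -0.51 ± 0.17 and -0.45 ± 0.15, and neither passed (adjusted p = 0.0871 and 0.091, edgeR).

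Cycloheximide, which came with a longer biotin pulse, went with lower Sec63 enrichment of 3 members, with 0 higher, against 6.43% and 19.2% of all genes. The members' median difference was -0.26, against 0.01 over all genes. Of the cytosolic small-subunit genes 14 of 56 were lower and 0 higher (median -0.30). Of the glycolysis and translation factor genes 12 of 46 were lower and 3 higher (median -0.35). The large subunit had 0 of 42 lower and 2 higher (median -0.01). MRP2 (uS14m) had -0.73, -0.36 and 0.05 with the drug at 0, 30 and 60 min, against 0.48, 0.55 and 0.75 without it (difference -0.71 ± 0.15, adjusted p = 0.0208, edgeR). RSM18 (bS18m) had -0.97, -0.41 and -0.47, against 0.29, 0.22 and 0.46 (-0.71 ± 0.17, adjusted p = 0.0326). PET123 had -0.79, -0.39 and -0.19, against 0.09, 0.41 and 0.37 (-0.52 ± 0.14, adjusted p = 0.0433). In all 3 genes no value with the drug reached any value without it. MRP13 and SWS2 had differences of 0.69 and 0.73 that did not pass (adjusted p = 0.108 and 0.0936). The direction of these calls depends on scaling. The same 3 genes were lower with library totals (26 calls, all lower). With libraries centred on glycolysis and translation factor genes none of the 3 passed and 3 other members were called higher. The shares of all genes called under these 2 scalings are not given here.

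In total footprints, read from the inputs as deposited RPKM (footprints scaled by gene length and library size), 30 of the 31 genes lay above the median of all genes tested, which was 28.6. The median of the members' means over the 5 inputs at 0 min was 59.9. MRPS12 had the highest level, 199 ± 67.6 RPKM (SD, n = 5 series), followed by RSM19 at 166 ± 50.9, MRP10 at 134 ± 20.9 and MRP2 at 128 ± 36.2. RSM22 had the lowest, 14.8 ± 6.13 RPKM. RSM23 and RSM28 followed at 34.7 ± 15.2 and 35.5 ± 20.4. The rest lay between 40.1 and 97.8, so that footprints per length of these subunits of 1 particle ranged widely. All 31 genes together took 0.116 to 0.222% of input counts over the 15 inputs, and the 2 highest shares were those of the Tom20 inputs, from the W303 strain.

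Auxin changed the input level of few members. At 15 min 0 passed, against 5.24% of all genes called higher and 8.48% called lower (edgeR); DESeq2 called 2. At 30 min 4 were higher (RSM18 by 0.36, MRP17 by 0.34, RSM28 by 0.30 and MRPS12 by 0.27 log2 units) and 1 was lower (RSM25, which fell by 0.51), against 21.8% and 23.9% of all genes. At 60 min 3 were higher and 4 lower, against 30.6% and 28.2% of all genes, and the median change was -0.01, against 0.06 over all genes. Input was below its 0 min value in all 3 series in 4 members, against 32.7% of all genes. Among cytosolic small-subunit genes 54 of 56 were lower at 60 min, with a median of -1.39.

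RSM25 (mS23) had TMM-scaled input CPM of 59.2, 38.7, 28.5 and 32.3 at 0, 15, 30 and 60 min in the Sec63 series with cycloheximide. In the Ubc6 series it had 86.3, 44.0, 37.2 and 28.9, and in the Sec63 series without the drug 36.9, 34.7 and 26.5 at 0, 30 and 60 min. In these 3 series every later value lay below the 0 min value. Of the mitochondrial series, both with cycloheximide, Tom20 had 59.2 and 47.1 and Om45 had 30.8 and 32.0 at 0 and 30 min. The part of drug, bait and strain in the 0 min level was not tested. The fitted change at 60 min was -0.83 ± 0.22 (adjusted p = 0.00561, edgeR), and -0.58 without the Ubc6 series (adjusted p = 0.0528). RSM7 (uS7m) had 108, 48.7, 49.3 and 66.8 CPM at 0, 15, 30 and 60 min in the Sec63 series with cycloheximide and 89.0, 48.5, 62.5 and 47.4 in the Ubc6 series. It had 40.1, 39.8 and 40.8 at 0, 30 and 60 min at Sec63 without the drug, and its 0 min inputs were 79.2 at Tom20 and 40.5 at Om45. Its 60 min change of -0.39 did not pass (adjusted p = 0.132).

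MRP1, RSM26 and MRPS9 were the other members lower at 60 min, with changes of -0.48, -0.47 and -0.34. MRPS12 had 109, 97.0, 112 and 156 CPM at 0, 15, 30 and 60 min in the Sec63 series with cycloheximide, 103, 117, 121 and 146 in the Ubc6 series, and 69.1, 94.9 and 87.0 at 0, 30 and 60 min without the drug. Its 60 min value was above its 0 min value in all 3 series (0.47 ± 0.12, adjusted p = 0.0052, edgeR). MRP17 was higher by 0.55 ± 0.16, with changes of 1.05, 0.52 and 0.16 in the 3 series, and RSM18 by 0.36 ± 0.12. With libraries centred on glycolysis and translation factor genes, which themselves had a median input change of -0.87 at 60 min, 27 members were called higher and 0 lower. The share of all genes called under this scaling is not given here.

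**Figure D5:**
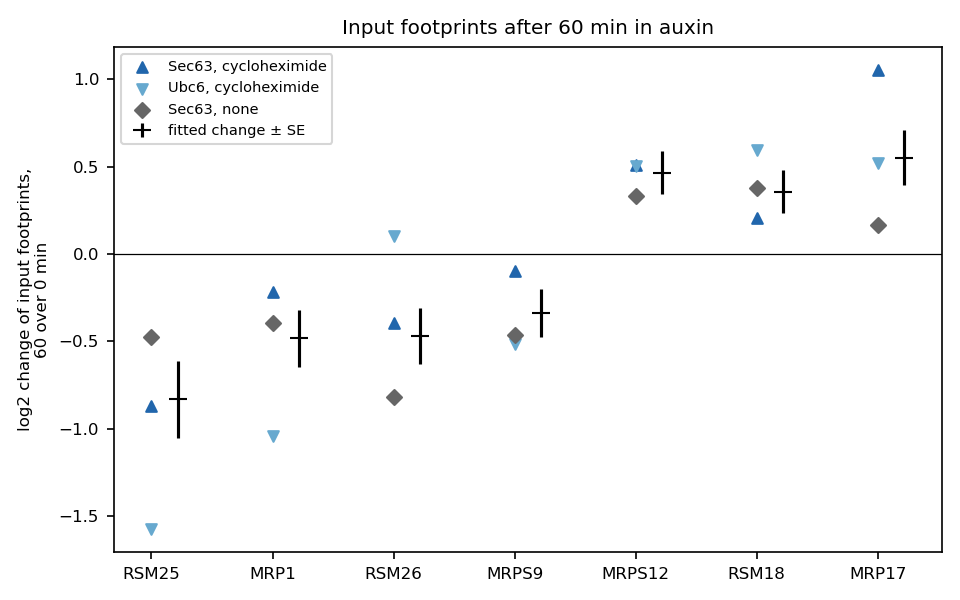
Log2 change of TMM-scaled input footprints at 60 over 0 min in the 3 series sampled at 60 min (points) with the fitted change and its SE (bar), for the 7 members that passed. RSM25, MRP1 and MRPS9 lie below 0 in all 3 series and MRPS12, RSM18 and MRP17 above 0, while RSM26 has 1 series above 0.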

How the data were processed

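The members and gene lists were chosen with earlier results of these data known. Per the file headers, each deposited table held a footprint count and an RPKM per gene; the authors' counts were used for tests and their RPKM for levels between genes. Per the submitters' processing notes, CASAVA, Bowtie 1.1.2, TopHat2 2.1.1 and the build sacCer3 were used. The sources used here do not state whether molecular identifiers were collapsed, whether strand was kept or how multiply mapped reads were handled. Barcoded libraries alone carried identifiers, per the labels' protocols, and the Ubc6 series has no barcode.

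The filter kept genes averaging 20 or more input counts, which were tested with edgeR 4.0.16 in R 4.3.3 (quasi-likelihood, 2-sided, TMM, Benjamini-Hochberg, threshold 0.05). Blocks were the pair and the series or time; residual degrees of freedom were 3 (baits), 6 (auxin at all baits), 7 (inputs), 3 (Sec63 against Ubc6), 2 (cycloheximide) and 1 (Tom20 against Om45). Enrichment is the log2 TMM CPM of pulldown minus input, prior count 1, scaled over all 30 libraries; input CPM are scaled over the 15 inputs. Each fit scales its own libraries, so fitted values can differ slightly from differences of pairs. The SE of a fitted value is its absolute size divided by the square root of the quasi-likelihood F statistic. It is thus derived from the test and does not match the p in every case. Members were all nameable; per comparison those with the largest changes or smallest p, the 3 nearest 0 and fixed examples (NAM9, MRP1, RSM26, MRP4, MRPS5, MRP10, MRP51, PET123, RSM22 and RSM23) are given. Alternatives were DESeq2 1.42.0, library totals, centring on 46 glycolysis and translation factor genes, no filter, no block and leaving out each series or time. The scripts' tests were tested on simulated data. 119 genes without RPKM were not used.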

Additional observations from a re-analysis of the deposited data

Results flagged for a closer look

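MRP13 differed between compartments in its 30 min response to auxin: its enrichment changed by -0.01 at the mitochondrial baits, against 1.26 at the ER baits, and the test of the difference itself gave -1.26 on the log2 scale (edgeR adjusted p = 0.0265). The change was above 0 in all 3 ER series, and of both mitochondrial series it was above 0 at Tom20 and below 0 at Om45. The adjusted p over the alternatives ran from 0.00393 with library totals to 0.328 without the Om45 series.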

How the results depend on the processing

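The 17 members called higher at mitochondrial than at ER baits came out as 17 with DESeq2 and with library totals. They were also 17 with libraries centred on genes of glycolysis and translation factors and with no low-count filter. Of all genes, 9.27% to 12.6% were called higher in these settings. With 1 ER series left out the members gave 13 to 17 calls. The other counts moved. They are given without the shares of all genes called under each alternative, so they are not results about the members alone. Library totals in place of TMM gave 14 calls at the ER at 30 min (6 as reported), 3 for the difference between compartments (1), 2 for Sec63 against Ubc6 (1) and 26 for cycloheximide (3); in the inputs at 30 min they gave 4 calls, all lower, where 4 higher and 1 lower are reported. Centring on glycolysis and translation factor genes gave 1, 5 and 0 calls at the ER at 30 min, at the ER at 60 min (16) and for the difference, and 3 and 27 in the inputs at 30 min (5) and 60 min (7); under it MRPS9, MRP1 and RSM26 turned to 0.36, 0.21 and 0.24 in the inputs at 60 min. DESeq2 gave 7 calls at the ER at 60 min, 1 at mitochondria at 30 min (0) and 2 in the inputs at 15 min (0), and no filter on low counts gave 8 at the ER at 60 min.

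Dropping the block for series or time, the closest to a replicate block here, gave 1 and 5 calls at the ER at 30 and 60 min, 0 for the difference, 1 and 4 in the inputs at 30 and 60 min and 0 for Tom20 against Om45 (8). Leaving out 1 series or time gave 0 to 1, 0 to 5 and 0 to 14 calls at the ER at 15, 30 and 60 min, 0 at mitochondria, 0 to 4 for the difference, 0 to 1, 1 to 4 and 4 to 7 in the inputs at 15, 30 and 60 min, 0 to 3 for Sec63 against Ubc6 and 0 to 11 for cycloheximide. MRP51 at the ER at 60 min ran from -0.14, without the Sec63 series with cycloheximide, to 0.47. Tom20 against Om45 could not be fitted without either time, as no residual degrees of freedom were left. Of the single-gene values 363 kept their direction and side of the threshold, 209 kept the direction only and 4 turned. The causes of these moves were not tested. Depth is least in the Ubc6 input at 0 min, with 2041786 counts, which enters every change of that series.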
